A study of Mus musculus with 8 samples.

Results

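The genes described here are 10 genes of the inflammasome and of pyroptosis, measured by RNA sequencing in whole mouse mammary tumours. They were the rows of the deposited count table whose gene name is Nlrp3, Nlrc4, Aim2, Pycard, Casp1, Casp4, Gsdmd, Gsdme, Il1b or Il18. All 10 names were found, among 26709 genes in the table. All 10 also passed the filter on low counts, which left 19718 genes to test.

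The tumours were EMT6, a carcinoma line of the mouse mammary gland, grown in syngeneic Balb/c hosts labelled WT in genotype. 4 tumours came from mice given IgG as the control, and 4 from mice given GrB-Fc-KS49, which the series title calls a human fusion protein that contains granzyme b and is aimed at EMP2, a membrane protein. Both treatments were given 3 times within 10 days, and the tumours of both groups carried the same cell line. Ages are not stated, and neither is whether every tumour had its own mouse, so a p-value here speaks for the spread among these 8 tumours only. Replicate numbers only name libraries. One title in each group ends in the letter U (control replicate 1, treated replicate 3), which the labels do not explain.

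Inflammasomes are protein complexes that form in the cytosol when a sensor detects a microbial product or a sign of cell damage. The sensor recruits the adaptor ASC, encoded by Pycard, which in turn gathers and activates caspase-1. Active caspase-1 cuts the precursors of interleukin 1 beta and interleukin 18 and cuts gasdermin D, whose freed end makes pores in the plasma membrane, a form of lytic cell death called pyroptosis. Caspase-11, encoded by Casp4, cuts gasdermin D after it meets intracellular lipopolysaccharide. Gasdermin E can be cut by granzyme B, the protease carried by the treatment. These steps are controlled by cleavage and assembly of proteins, which a measurement of RNA does not show.

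Library totals ran from 74 to 82.6 M counts. Levels are given as CPM, the counts per 1000000 of a library, after TMM scaling (trimmed mean of M-values) of the totals. The label of the cells is epithelial breast tumour cells, and 8 epithelial carcinoma markers such as Krt8 and Krt18 summed to between 482 and 565 CPM in the controls and between 475 and 827 CPM in the treated tumours. The libraries also held markers of stroma and immune cells: 7 fibroblast markers summed to between 7311 and 11269 CPM in the controls and to 5394, 6446, 13421 and 9868 CPM in treated replicates 1 to 4. Hence these are whole tumours, in which a larger share of a cell type and more RNA per cell cannot be told apart.

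No gene of the 10, and no gene of the 19718 tested (0%), passed an adjusted p under 0.05 in edgeR's quasi-likelihood test with Benjamini-Hochberg adjustment. At an unadjusted p under 0.05 there were 2 of the 10, Nlrc4 and Pycard, both with the higher level in treated tumours. Over all genes tested, 6915 (35.1%) reached that level, 3404 (17.3%) with the higher and 3511 (17.8%) with the lower level in treated tumours. Read against these shares, 2 of 10 is near the background. The mean was higher in treated tumours for 9 of the 10 genes, against 53.2% of all genes tested, and the median log2 fold change (GrB-Fc-KS49 minus IgG control) was 0.48 over the 10 against 0.03 over all genes. The 2 groups overlapped for each of the 10 genes, while 25.7% of all genes tested had no overlap, 10.3% with the treated and 15.3% with the control tumours higher.

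The higher treated means came mostly from 2 tumours. For 9 of the 10 genes, the 2 highest libraries of the 8 were GrB-Fc-KS49 replicates 1 and 2, an arrangement that 16.3% of all genes tested showed. Replicates 1 and 2 were each above every control for the same 9 genes, against 40.9% and 33.6% of all genes tested, and below every control for the other, Gsdme. Replicate 3 was above every control for 1 gene and below every control for 5, against 34.3% and 33.7% of all genes. Replicate 4 was above every control for 4 and below every control for 2, against 24.2% and 29.9%. With replicates 1 and 2 left out, an alternative chosen after the data were seen, 5 of the 10 genes had a fitted log2 fold change above 0 and the median over the 10 was 0.01.

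The lowest library was control replicate 1 for 4 of the genes and treated replicate 3 for 5, which are the 2 libraries whose titles end in U. Of all genes tested, 27.5% had their lowest level in one of these. Without both of them, 9 of the 10 genes had a log2 fold change above 0, with a median of 0.55, and with the suffix as a covariate 8 did, with a median of 0.45.

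**Figure D1:**
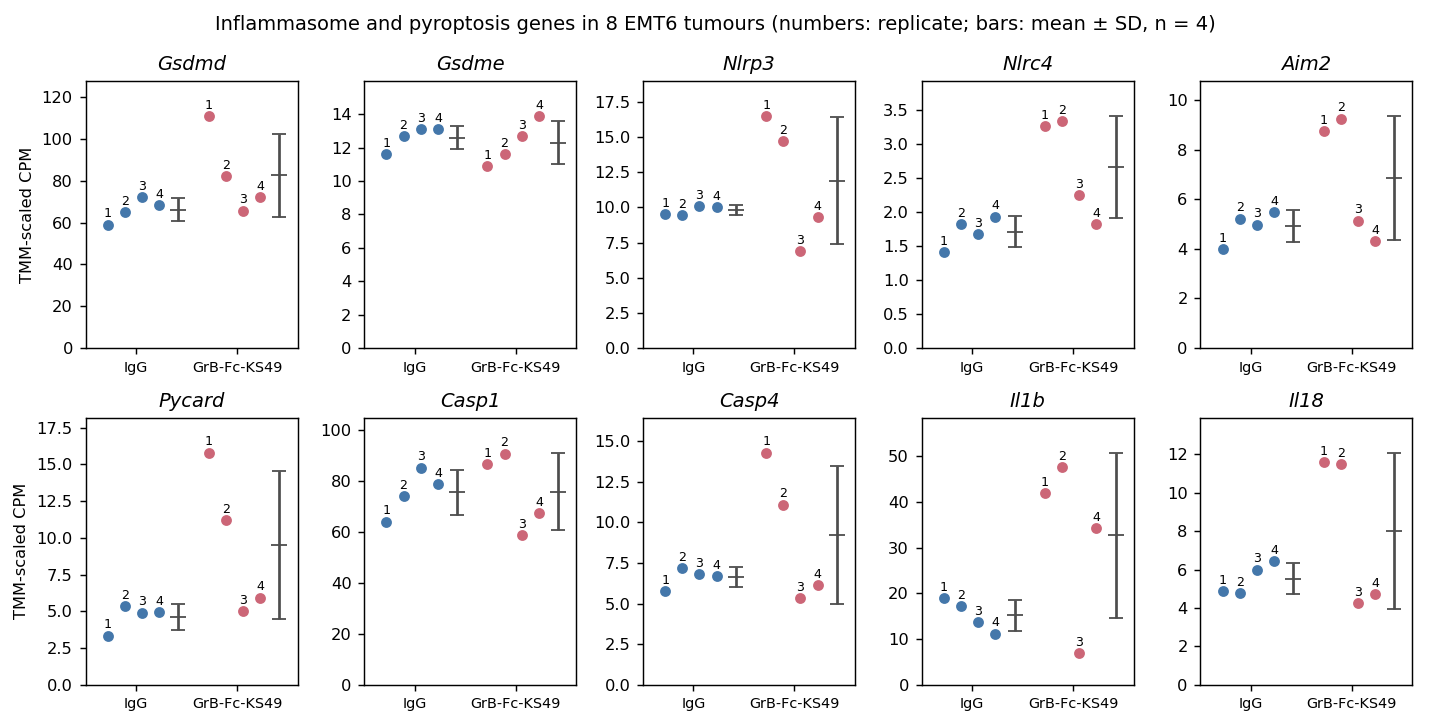
TMM-scaled CPM (vertical axes, linear, from 0) of the 10 genes in each tumour, with IgG controls in blue and GrB-Fc-KS49 tumours in red; numbers name the replicate, and bars to the right of each group give its mean ± SD (n = 4). Treated replicates 1 and 2 are the highest 2 points in 9 panels, Gsdme being the exception, and treated replicate 3 is the lowest of the 8 in 5 panels.

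The spread between tumours was wider after GrB-Fc-KS49 for each of the 10 genes, as for 78.9% of all genes tested. The median coefficient of variation of the 10 was 12.5% in the controls and 37.2% in the treated tumours, against 10.2% and 18.7% over all genes.

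Before the values of single genes, stretches of promoter are shown for 4 of them, because these hold the only matches to the motifs searched. RefSeq windows of the mouse build GRCm38.p6, from 250 bases before to 50 bases after a transcript's start, were at hand for 9 of the 10 genes, in 11 windows. The bases before the start are printed, 5′ to 3′ on the gene's strand, with the matched motif in capitals. The Casp4 stretch is chr9:5308599-5308848 (plus strand), that of Nlrp3 is chr11:59541319-59541568 (plus strand, the window of the farther upstream start), that of Pycard is chr7:127993868-127994117 (minus strand) and that of Aim2 is chr1:173420354-173420603 (plus strand).
Casp4: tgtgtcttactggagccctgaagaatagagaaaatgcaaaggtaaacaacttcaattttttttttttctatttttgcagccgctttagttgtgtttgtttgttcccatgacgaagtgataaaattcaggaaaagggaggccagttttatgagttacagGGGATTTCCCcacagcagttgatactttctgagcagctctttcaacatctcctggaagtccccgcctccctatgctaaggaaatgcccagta
Nlrp3: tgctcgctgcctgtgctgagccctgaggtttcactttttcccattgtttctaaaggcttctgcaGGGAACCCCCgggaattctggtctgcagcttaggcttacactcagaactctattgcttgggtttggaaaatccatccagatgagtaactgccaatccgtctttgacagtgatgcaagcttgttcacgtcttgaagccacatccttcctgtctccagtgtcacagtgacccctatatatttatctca
Pycard: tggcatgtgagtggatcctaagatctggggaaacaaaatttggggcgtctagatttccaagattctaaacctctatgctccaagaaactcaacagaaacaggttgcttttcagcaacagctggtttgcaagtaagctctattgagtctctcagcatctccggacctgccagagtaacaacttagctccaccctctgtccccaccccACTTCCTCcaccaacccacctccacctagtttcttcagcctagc
Aim2: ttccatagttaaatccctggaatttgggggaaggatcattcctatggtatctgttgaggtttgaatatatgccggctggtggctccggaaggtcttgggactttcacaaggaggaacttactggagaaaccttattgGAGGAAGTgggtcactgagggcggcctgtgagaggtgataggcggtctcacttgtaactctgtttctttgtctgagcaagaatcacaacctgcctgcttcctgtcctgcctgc

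The motif in Casp4 and Nlrp3 is a core of the NF-kB site, searched on both strands as GGGA, any 4 bases, then CC. With -1 as the base before the start, it begins at -92 in Casp4, where it reads GGGATTTCCC and matches on both strands, and at -186 in Nlrp3, where it reads GGGAACCCCC. A second Casp4 window, which overlaps the first, holds the same match. Over 32817 windows of all genes, 20.7% held this motif. The motif in Pycard and Aim2 is a core of the site of PU.1, a transcription factor of myeloid cells and B cells, searched as GAGGAAGT on both strands. In Pycard it lies on the other strand, as ACTTCCTC, from -44, and in Aim2 it begins at -113. It was in 3.2% of all windows. None of the 11 windows held the interferon-stimulated response core (GAAA, any 2 bases, GAAA; 3.43% of all windows), the gamma-activated site core TTCNNNGAA (8.29%) or the AP-1 core TGANTCA (7.81%). The motifs do not share letters in these windows, and such matches describe letters, not binding.

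Of the sensors, Nlrp3 responds to potassium efflux and other signs of cell stress. Nlrp3 (ENSMUSG00000032691, chr11:59432394-59457782 on GRCm39, plus strand) was at 9.53, 9.47, 10.1 and 10 CPM in control replicates 1 to 4 and at 16.5, 14.7, 6.91 and 9.33 CPM in treated replicates 1 to 4. The controls lay within a narrow band, and the treated tumours lay on both sides of it, with 2 above and 2 below every control. Mean levels were 9.79 ± 0.347 and 11.9 ± 4.49 CPM (SD, n = 4 each). For Nlrp3 the log2 fold change was 0.28 (SE 0.25, adjusted p 0.449), and 0.07 without treated replicate 1.

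Nlrc4 forms an inflammasome with NAIP proteins that bind flagellin or parts of bacterial secretion systems. Nlrc4 (ENSMUSG00000039193, chr17:74732433-74766137, minus strand) was at 1.41, 1.82, 1.67 and 1.93 CPM in the controls and at 3.26, 3.33, 2.25 and 1.82 CPM in the treated tumours. Treated replicates 1 to 3 exceeded every control, and treated replicate 4 lay within their range. This gave a log2 fold change of 0.64 (SE 0.23, unadjusted p 0.0219, adjusted p 0.0936). DESeq2 gave a log2 fold change of 0.64 with an adjusted p of 0.0416. The edgeR fit without treated replicate 4 gave 0.78, with the same adjusted p. DESeq2 called 24.5% of all genes with an adjusted p, and edgeR without that replicate 17.1%. Each library held between 117 and 260 counts of Nlrc4, the least of the 10 genes. The pseudogene Gm4708, at a mean of 14.8 CPM, overlaps Nlrc4 on the same strand.

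Aim2 binds double-stranded DNA in the cytosol. Aim2 (ENSMUSG00000037860, chr1:173178445-173293606, plus strand) stood at 3.99, 5.22, 4.98 and 5.49 CPM in the controls and at 8.74, 9.25, 5.14 and 4.3 CPM in the treated tumours. Treated replicates 1 and 2 were above the controls and the other treated tumours within their range. The log2 fold change of 0.48 (SE 0.26) did not pass the test (adjusted p 0.212), and without both high tumours it was -0.05.

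Pycard encodes the adaptor that links these sensors to caspase-1. Pycard (ENSMUSG00000030793, chr7:127588880-127593039, minus strand) was at 3.35, 5.37, 4.91 and 4.92 CPM in the controls and at 15.8, 11.2, 5.01 and 5.93 CPM in the treated tumours. Treated replicates 1, 2 and 4 exceeded every control, and treated replicate 3 lay just within their range. Group means were 4.64 ± 0.884 and 9.5 ± 5.03 CPM (SD, n = 4 each), a log2 fold change of 1.03 (SE 0.36, unadjusted p 0.0196, adjusted p 0.0886). Pycard had the lowest unadjusted p of the 10 genes. DESeq2 gave it an adjusted p of 0.0229. Over the fits that left out 1 library each, the log2 fold change ran from 0.67, without treated replicate 1, to 1.24, without treated replicate 3. On the deposited CPM, which are scaled by library total alone, the groups did not overlap for Pycard, nor did they for 25.1% of all genes tested. The count of Pycard had a fractional part in all 8 libraries, and those of Gsdmd and Casp1 had one in 4 libraries each. How these estimated counts were made is not stated in the labels.

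Caspase-1 is the protease at the end of this chain, and the group means of its RNA were nearly equal. Casp1 (ENSMUSG00000025888, chr9:5298508-5307290, plus strand) was at 64.1, 74.2, 85.3 and 78.8 CPM in the controls and at 86.6, 90.8, 58.7 and 67.4 CPM in the treated tumours. Treated replicates 1 and 2 were just above the highest control, and treated replicate 3 below the lowest. Group means were 75.6 ± 8.94 and 75.9 ± 15.3 CPM (SD, n = 4 each), with a log2 fold change of 0.01 (SE 0.15, adjusted p 0.984). Its sign turned in 10 of the alternative analyses, the lowest value being -0.25 without treated replicates 1 and 2.

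Casp4 (ENSMUSG00000033538, chr9:5308828-5336783, plus strand), the gene of caspase-11, is the downstream neighbour of Casp1. Casp4 was at 5.77, 7.18, 6.84 and 6.68 CPM in the controls and at 14.3, 11.1, 5.32 and 6.13 CPM in the treated tumours. Again treated replicates 1 and 2 stood above all controls, replicate 3 was the lowest of the 8, and replicate 4 lay within the control range. Its log2 fold change was 0.48 (SE 0.30, adjusted p 0.28), and 0.18 without treated replicate 1. With each library's trend over transcript length and GC content removed, in a fit of protein-coding genes only, the log2 fold change was 0.26. The median was -0.07 over the 14508 genes of that fit and 0.03 over the 19718 genes of the main fit, which are different sets.

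Gsdmd encodes gasdermin D, the pore-forming substrate of both caspases. Gsdmd (ENSMUSG00000022575, chr15:75734176-75739257, plus strand) was at 59, 65, 72.2 and 68.5 CPM in the controls and at 111, 82.2, 65.7 and 72.3 CPM in the treated tumours. Treated replicate 1 was the highest by a wide gap, and replicate 4 was almost level with the highest control. Group means were 66.2 ± 5.6 and 82.7 ± 19.8 CPM (SD, n = 4 each). The log2 fold change of 0.32 (SE 0.16, adjusted p 0.175) was 0.15 without treated replicate 1. It was 0.03 with the length and GC trends removed.

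Gasdermin E is the gasdermin that granzyme B can cut directly. Gsdme (ENSMUSG00000029821, chr6:50165868-50240842, minus strand) was at 11.6, 12.7, 13.1 and 13.1 CPM in the controls and at 10.9, 11.6, 12.7 and 13.9 CPM in the treated tumours. It was the exception among the 10 genes: treated replicates 1 and 2 were below the lowest control and replicate 4 was the highest of all. Means were 12.6 ± 0.678 and 12.3 ± 1.29 CPM (SD, n = 4 each), a log2 fold change of -0.04 (SE 0.10, adjusted p 0.796). Gsdme had the smallest spread of the 10 in the treated tumours, with a coefficient of variation of 10.5%, and 5.37% in the controls. Its locus overlaps that of Pals2, a gene on the opposite strand at a mean of 71.8 CPM, and whether the counting used strand is not stated. Aim2 and Il18 likewise overlap Cadm3 (1.64 CPM) and Bco2 (0.743 CPM), and Pycard and Il1b overlap Gm45205 and Il1bos at 0.127 and 0.13 CPM.

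Il1b encodes the precursor of interleukin 1 beta, a cytokine of fever and neutrophil recruitment. Il1b (ENSMUSG00000027398, chr2:129206490-129213059, minus strand) was at 18.9, 17.2, 13.7 and 11.2 CPM in the controls and at 42, 47.7, 6.9 and 34.2 CPM in the treated tumours. Here 3 treated tumours were above every control, replicate 4 among them, and replicate 3 was below every control. Means were 15.2 ± 3.46 and 32.7 ± 18.1 CPM (SD, n = 4 each). Il1b had a log2 fold change of 1.10 (SE 0.50, unadjusted p 0.0567, adjusted p 0.153), the largest of the 10 genes with the widest error. Leaving out treated replicate 3 gave 1.44, and leaving out treated replicates 1 and 2 gave 0.45.

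Il18 encodes the precursor of interleukin 18, which prompts T cells and NK cells to make interferon gamma. Il18 (ENSMUSG00000039217, chr9:50466127-50493140, plus strand) was at 4.88, 4.77, 6 and 6.45 CPM in the controls and at 11.6, 11.5, 4.24 and 4.74 CPM in the treated tumours. The treated tumours formed a high pair and a low pair, with the low pair below every control. The log2 fold change was 0.54 (SE 0.35, adjusted p 0.294). Without treated replicate 1 it was 0.30, without both high tumours -0.29, and with the length and GC trends removed 0.14.

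**Figure D2:**
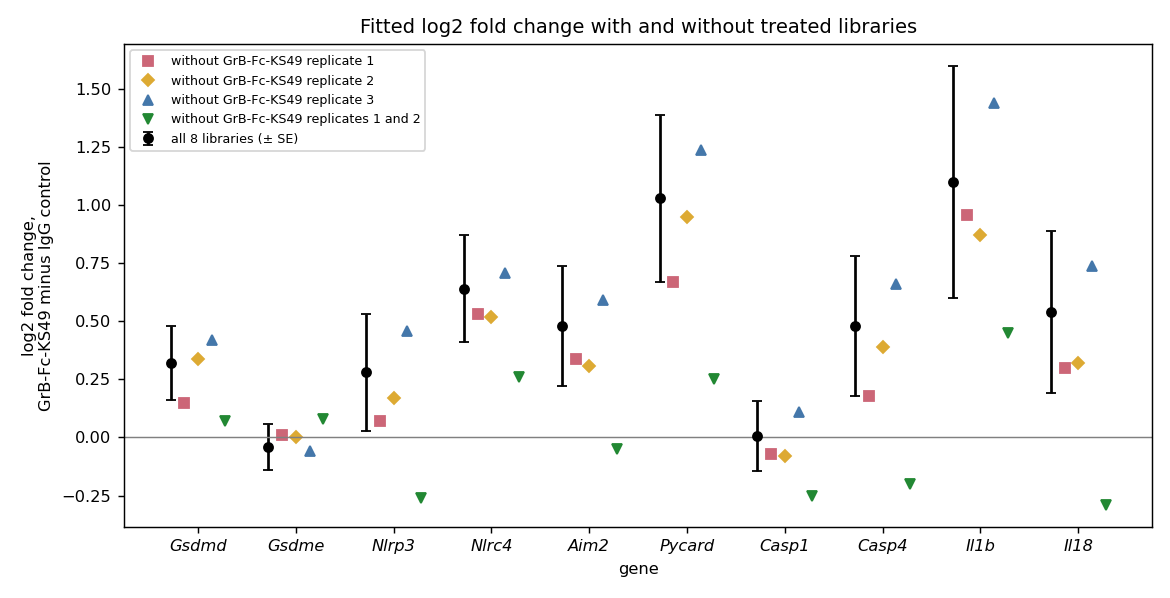
Fitted log2 fold change (vertical axis, GrB-Fc-KS49 minus IgG control) of the 10 genes from all 8 libraries, as black points with bars of ± 1 SE, beside the values with treated replicate 1, 2 or 3, or replicates 1 and 2 together, left out. Pycard falls from 1.03 to 0.67 without replicate 1, and Nlrp3, Aim2, Casp1, Casp4 and Il18 lie below 0 without replicates 1 and 2.

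Levels of different genes were compared per kilobase of transcript, with lengths of the annotated principal transcript in GENCODE M21. In the controls the order of CPM per kilobase was Casp1 at 50.5 ± 5.97, Gsdmd at 36.9 ± 3.12, Il1b at 11.2 ± 2.55, Il18 at 6.43 ± 0.962, Gsdme at 5.05 ± 0.271, Casp4 at 4.61 ± 0.422, Nlrp3 at 2.44 ± 0.0863, Aim2 at 1.73 ± 0.231, Pycard at 1.22 ± 0.233 and Nlrc4 at 0.361 ± 0.0475 (SD, n = 4). The protease Casp1 and the pore former Gsdmd thus stood above the sensors and the adaptor in length-scaled RNA level. Gsdme and Casp4 lay within the sum of their SDs. The place of Pycard rests on a transcript length of 3800 bases in that annotation. In the treated tumours the values were 50.7 ± 10.2 for Casp1, 46.2 ± 11.1 for Gsdmd, 24.1 ± 13.3 for Il1b and 2.5 ± 1.32 for Pycard, so Casp1 and Gsdmd lay within their SDs of each other.

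Across the 8 libraries, which include the 2 high treated tumours, most of the 10 profiles ran in parallel. Pearson's r of log2 CPM was 0.95 for Gsdmd with Pycard, for Nlrp3 with Casp4, for Nlrp3 with Il18 and for Nlrc4 with Aim2. Gsdme had a negative r with each of the other 9 genes, from -0.33 to -0.70. These values are descriptions over 8 libraries that share the same outlying tumours, the same depths and the same groups.

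Each gene was also set beside the protein-coding genes whose log2 CPM was most like its own over the 8 libraries. For Gsdmd these were Psme2b (r 0.998), Keap1 (0.997) and Psme2 (0.997), Psme2 being a subunit of a proteasome activator. Pycard was most like Ifnar2 (0.994), an interferon receptor chain, Hcls1 (0.993) and Clec4a3 (0.993). Casp4 ran closest to the adhesion molecule Icam1 (0.991), the kinase Lyn (0.991) and the phosphatase Ptpn6 (0.987), and Casp1 closest to the myeloid receptor Clec5a (0.995). Nlrp3 was most like Slfn1 (0.978), Gbgt1 (0.977) and Socs3 (0.977). Nlrc4 was most like Ms4a7 (0.987), Aim2 most like Arhgap25 (0.987), and Il18 most like Pctp (0.985) and Mefv (0.982), the last encoding the inflammasome sensor pyrin. For Il1b the nearest were Hcar2 (0.946), the decoy receptor Il1r2 (0.939) and Hdc (0.938), which makes histamine. Gsdme had the loosest matches of all, Zbtb24 (0.935), Ccdc14 (0.934) and Pcdh19 (0.93). By rank (Spearman's rho) some pairs were looser, at 0.79 for Pycard with Ifnar2 and 0.76 for Il18 with Pctp. Others were not, such as Casp1 with Clec5a at 0.98.

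Markers of several immune cell types were highest in treated replicates 1 and 2, as were 9 of the 10 genes, Gsdme being the exception. The sum of the carcinoma epithelial markers had this trait too, at 726 and 827 CPM in these 2 tumours and at most 596 CPM elsewhere. Most of that sum was Krt8 (595 and 631 CPM) and Krt18 (103 and 109 CPM). The other carcinoma markers did not share the trait. Krt19, Epcam and Cldn4 were lowest of the 8 libraries in treated replicate 1, at 4.34, 2.73 and 1.54 CPM. Epcam, Cdh1, Cldn4 and Esrp1 were highest in treated replicate 2, and Krt7 in treated replicate 1. The 10 macrophage markers summed to between 958 and 1196 CPM in the controls and to 2484, 1830, 1246 and 1161 CPM in treated replicates 1 to 4, with 9 of the 10 at a higher fitted level in treated tumours. Most of that difference lay in the complement genes C1qa, C1qb and C1qc, which summed to between 355 and 557 CPM in the controls and to 1759, 1139, 637 and 662 CPM in the treated tumours. The other 7 macrophage markers summed to between 554 and 639 CPM in the controls and to 725, 691, 609 and 499 CPM, and among them the log2 fold change was 0.04 for Csf1r, 0.09 for Cd14 and -0.39 for Mrc1. The 10 neutrophil markers summed to between 26.8 and 55.3 CPM in the controls and to 77.6, 146, 32.5 and 54.7 CPM in the treated tumours, the order in which replicates 3, 4, 1 and 2 also stood for Il1b. In treated replicate 2, S100a9 at 70.9 CPM and S100a8 at 39.9 CPM made up most of the sum, in the tumour with the keratinocyte sum of 2206 CPM. Csf3r was at 19.2 and 19.5 CPM in treated replicates 1 and 2, against at most 7.8 CPM in the controls. The defining neutrophil genes Ly6g, Camp and Ngp were at 0 in at least 1 library. The 9 dendritic cell markers summed to between 15.5 and 25.3 CPM in the controls and to 55.8, 49.6, 20.8 and 26.3 CPM in the treated tumours. Itgax made up most of that sum in treated replicates 1 and 2, at 29.7 and 32.1 CPM. By fitted level 8 of the 9 were higher in treated tumours and 1, Zbtb46, was lower. Zbtb46 was at 5.43 and 5.06 CPM in treated replicates 1 and 2, against at least 6.62 CPM in the controls. The 8 T cell markers summed to between 10.9 and 16.5 CPM in the controls against 69.9, 42.2, 13.2 and 26.5 CPM in the treated tumours. Of the 7 monocyte markers 3 had a higher and 4 a lower fitted level in treated tumours. Ly6c2 was at 53.2 and 19.6 CPM in treated replicates 1 and 2 against at most 6.25 CPM in the controls, and Ms4a4c and Plac8 were also highest in these 2 tumours. Vcan and F13a1, which are not limited to monocytes, made up much of the sum and were lowest in the same 2 tumours, so that all 7 together came to between 396 and 602 CPM in the controls and to 383, 348, 462 and 335 CPM in the treated tumours. The fibroblast sum was below every control in treated replicates 1 and 2 and above every control in replicate 3. Col1a1 and Col1a2 made up most of it, at 2113 and 3006 CPM in treated replicate 1 and 2416 and 3683 CPM in replicate 2. Those 2 collagens, Pdgfra and Pdgfrb were below every control in both tumours. Dcn and Dpt lay within the control range in both, and Lum in replicate 2 only. By fitted level, 4 of the 7 fibroblast markers were higher and 3 lower in treated tumours. Whether the levels of these cell types account for those of the inflammasome genes was not tested.

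Markers of muscle, skin and fat also differed between libraries. The 8 skeletal muscle markers summed to between 40.2 and 195 CPM in the controls and to 2296, 298, 371 and 38.8 CPM in the treated tumours. The 10 keratinocyte markers summed to between 8.62 and 18.1 CPM in the controls and to 22.5, 2206, 17.7 and 10.6 CPM, and 8 adipocyte markers to between 34.3 and 60.3 CPM and to 93.3, 54.2, 228 and 54.6 CPM. Of the keratinocyte genes, Ivl, Krtdap, Dsg1a and Dsc1 were at 0 in at least 1 library. The high muscle sum in treated replicate 1 and the high keratinocyte sum in treated replicate 2 fall in the 2 tumours that were highest for 9 of the 10 genes. Their part in the results was not tested.

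**Figure D3:**
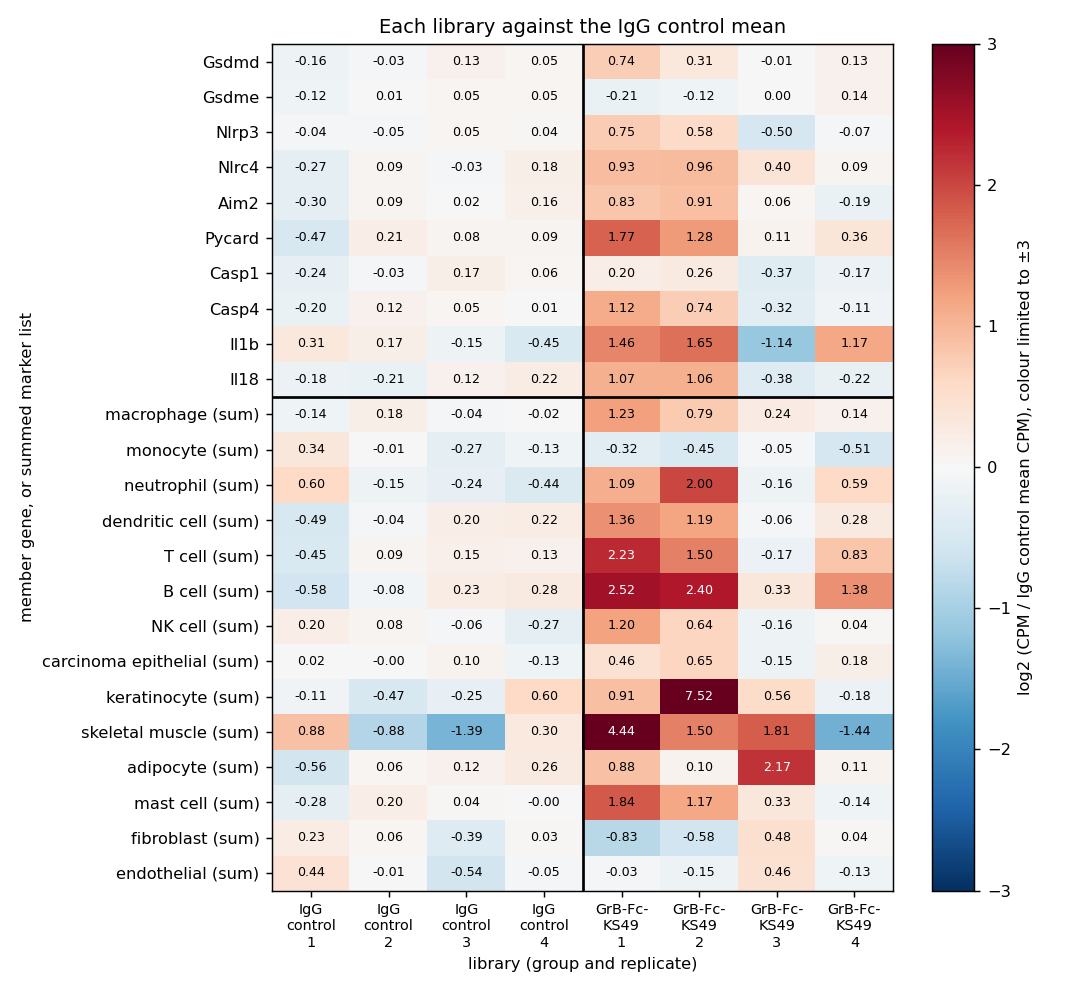
Log2 ratio of each library to the mean CPM of the 4 IgG controls (colour, limited to ± 3, with the value in each cell) for the 10 genes in the upper block and for the summed CPM of 14 marker lists in the lower block. Treated replicates 1 and 2 are above the control mean for 9 of the genes. They are also above it for every marker sum except 3, so the skeletal muscle, keratinocyte and adipocyte sums are among those above it. The fibroblast and monocyte sums are below it in those 2 tumours, and the endothelial sum slightly so (-0.03 and -0.15). Of the 7 monocyte markers, 3 (Ly6c2, Ms4a4c and Plac8) had a higher fitted level and 4 a lower one.

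Other genes of the pathway were taken from 5 lists with 64 genes, of which 60 were in the table and 54 were tested. None passed the adjusted threshold, 31 had a higher and 23 a lower fitted level in treated tumours, and the median log2 fold change was 0.23, against 0.03 over all genes tested. Of the 54, 9 were higher and 6 lower at an unadjusted p under 0.05. Of all genes tested, 17.3% were higher and 17.8% lower at that level. No gene of the 54 lay above all controls in all treated tumours, against 10.3% of all genes tested. Below all controls lay 4 (7.41%), Nek7, Casp8, Nfkb1 and Il18rap, a smaller share than the 15.3% of all genes tested.

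Among 13 sensors and their partners, 8 had a higher and 5 a lower level in treated tumours, with a median log2 fold change of 0.32. Nek7, the kinase that NLRP3 needs to assemble, was at 122, 135, 119 and 110 CPM in the controls and at 87.5, 104, 110 and 107 CPM in the treated tumours, without overlap before rounding (log2 fold change -0.25, SE 0.09, adjusted p 0.104). Zbp1, a sensor of Z-form nucleic acid that can act upstream of NLRP3, was at 13.6, 28.9, 42.8 and 34.4 CPM in the controls and at 166, 79.2, 13.2 and 46 CPM in the treated tumours. Zbp1 thus had the same high pair and the same low replicate 3 as Il18 and Casp4 (log2 fold change 1.35, SE 0.68, adjusted p 0.188). Pstpip1, a partner of pyrin, had a log2 fold change of 0.36 (SE 0.15, adjusted p 0.12), and Card9, an adaptor of fungal sensing, of 0.54 (SE 0.19, adjusted p 0.0922).

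Of the other gasdermins and genes of membrane rupture, 3 of the 8 in the table had enough counts to be tested. Ninj1, whose product breaks the plasma membrane after gasdermin pores have opened, was at 33.7, 29.6, 27.6 and 24.9 CPM in the controls and at 61.9, 42, 36.6 and 29.2 CPM in the treated tumours. Treated replicates 1 to 3 exceeded every control, and replicate 4 did not (log2 fold change 0.55, SE 0.21, adjusted p 0.112). Gsdma, a gasdermin of skin, was at 7.1 CPM in treated replicate 2 and between 0.087 and 0.224 CPM in the other 7 libraries. That tumour is the one with a keratinocyte marker sum of 2206 CPM, where Gsdmc, named after its values were seen, was at 4.61 CPM. The log2 fold change of Gsdma, 3.58 (SE 1.49, adjusted p 0.13), therefore rests on 1 tumour. Gsdmc4 had a log2 fold change of -0.12. Near-identical copies of the Gsdma and Gsdmc genes may share reads, so their values are uncertain.

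Of 9 tested proteases that can cut gasdermins or interleukin 1 family cytokines, 4 had a higher and 5 a lower level in treated tumours, with a median log2 fold change of -0.03. Casp8, which can cut gasdermin D, was at 72, 72.3, 72.1 and 69 CPM in the controls and at 51.3, 59.7, 55.4 and 59.9 CPM in the treated tumours, so all treated tumours were below all controls. Its log2 fold change was -0.33 (SE 0.07, unadjusted p 0.000985, adjusted p 0.0619), the lowest adjusted p of the named pathway genes in the edgeR fit of all 8 libraries. Mouse Gzmb, the host's own granzyme B, was at 1.63, 3.41, 2.68 and 1.36 CPM in the controls and at 26.7, 9.83, 0.512 and 2.44 CPM in the treated tumours. Treated replicate 3 was the lowest of all 8 libraries for Gzmb, and replicates 1 and 2 the highest (log2 fold change 2.12, SE 0.99, adjusted p 0.164). Gzma, the granzyme that cuts gasdermin B in humans, was at 9.1, 4.14, 0.452 and 1.28 CPM in the treated tumours, against 0.23 to 1.06 CPM in the controls (log2 fold change 2.41, SE 0.88, adjusted p 0.0988). Mcpt4, a mast cell chymase, had a log2 fold change of 1.51 (SE 0.67, adjusted p 0.146), while 6 mast cell markers, Mcpt4 among them, summed to 73.7 and 46.4 CPM in treated replicates 1 and 2 against at most 23.7 CPM in the controls.

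Of 16 genes of priming, ion flux and regulation, 9 had a higher and 7 a lower level in treated tumours (median log2 fold change 0.18). Nfkb1, a subunit of the factor that primes Nlrp3 and Il1b, was at 81.4 ± 0.499 CPM in the controls and 70.9 ± 7.42 CPM in the treated tumours without overlap (log2 fold change -0.20, SE 0.08, adjusted p 0.122). Tlr4, the lipopolysaccharide receptor, was at 18.8 ± 2.96 and 13.9 ± 3.59 CPM (log2 fold change -0.43, SE 0.2, adjusted p 0.151). Both lay lower while the mean of Il1b lay higher, though none of the 3 differences passed the test. Serpinb1a, an inhibitor of neutrophil proteases and of caspase-1 activation, was at 6.5 ± 1.4 and 11.5 ± 4.04 CPM (SD, n = 4 each; log2 fold change 0.82, SE 0.27, adjusted p 0.0803). Panx1, a membrane channel, had a log2 fold change of 0.26 (SE 0.11, adjusted p 0.13).

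Within the interleukin 1 family, 8 of the 13 tested genes had a higher and 5 a lower level in treated tumours (median log2 fold change 0.34). Il18bp, a secreted protein that binds and blocks interleukin 18, was at 3.31, 6.86, 10.2 and 7.68 CPM in the controls and at 51.8, 21.2, 4.85 and 9.4 CPM in the treated tumours. The high pair was the one seen for Il18 itself (log2 fold change 1.64, SE 0.69, adjusted p 0.134). The 2 chains of the interleukin 18 receptor lay in opposite directions: Il18r1, which binds the cytokine, was at 0.783 ± 0.148 and 2.2 ± 1.27 CPM (log2 fold change 1.49, SE 0.48, adjusted p 0.0762), and Il18rap, the accessory chain, at 83.7 ± 8.93 and 65.9 ± 8.74 CPM without overlap (log2 fold change -0.35, SE 0.12, adjusted p 0.0833). Il1rl1, the receptor of interleukin 33, was at 804 ± 139 CPM in the controls and 614 ± 124 CPM in the treated tumours (SD, n = 4 each; log2 fold change -0.39, SE 0.17, adjusted p 0.133). Il1rl1, Il18r1 and Il18rap lie beside each other on chromosome 1.

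**Figure D4:**
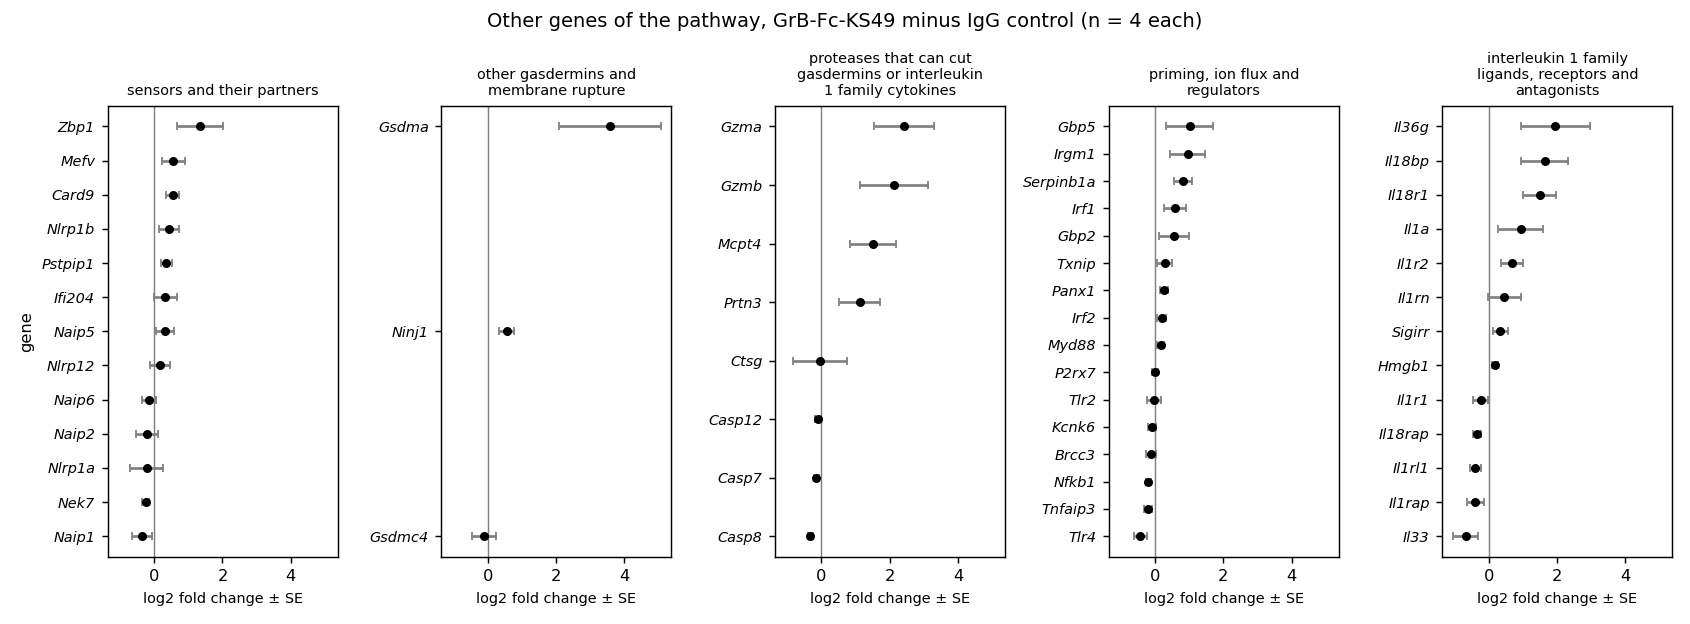
Fitted log2 fold change (horizontal axes, GrB-Fc-KS49 minus IgG control) of 53 of the 54 other tested pathway genes, in 5 panels by list, with bars of ± 1 SE (n = 4 tumours in each group). Zbp1, Gsdma, Gzma, Gzmb and Il18bp lie well to the right of 0 with wide bars, and Nek7, Casp8 and Nfkb1 lie a little to the left of 0 with narrow ones.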

How the data were processed

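RNA from 8 tumours, 4 per group, was sequenced as poly(A)-enriched libraries made with a KAPA kit for stranded mRNA, per the labels' protocols. The submitters' processing notes name bcl2fastq (2.19.1.403), STAR and the build GRCm39, while how genes were quantified, and whether by strand, is not stated there. Per gene, the authors deposited estimated counts, of which 46% to 47.7% per library were whole numbers within 0.05, and CPM made from the same counts by library total. The deposited table holds genes with at least 10 counts in all.

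Estimated counts were rounded to whole numbers, filtered with edgeR's filterByExpr, scaled by TMM and tested in R 4.3.3 with edgeR 4.0.16 (robust quasi-likelihood F test of the 2 groups over all 8 libraries, no covariate). Adjustment was by Benjamini-Hochberg over the 19718 genes, with a call at 0.05. A standard error is the log2 fold change divided by the square root of F. The scripts were tested on simulated data. The biological coefficient of variation was 27.8%.

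The 10 genes, the gene lists and the tests were chosen with earlier results of these data known. All 10 genes are named. Of each pathway list, up to 4 tested genes with the smallest unadjusted p and a mean of at least 1 CPM are named, besides Gzma, Gzmb and the members of counts of 5 or fewer; 1 gene that the rule names is not reported here. Likeness used Pearson's r of log2(CPM + 0.01), and the 3 most alike protein-coding genes at a mean of at least 1 CPM were taken, some of them unprinted. GRCm39 coordinates were read from the deposited table and are 1-based, while transcript lengths came from GENCODE M21 (GRCm38) by gene identifier, for 98.1% of the genes tested, and promoters from RefSeq on GRCm38.p6 by symbol.

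Alternatives were other scaling factors (RLE, upper quartile, library totals), no filter, a filter of 1 CPM in 4 libraries, DESeq2 1.42.0, limma 3.58.1 with voom, plain or weighted by sample, limma on log2(deposited CPM + 1) and log2(deposited CPM + 0.25), a fit that was not robust, each library left out, both U libraries left out, the U suffix as a covariate, and removal of length and GC trends with mgcv 1.9.3. The fit with length and GC trends removed was limited to protein-coding genes. A fit without treated replicates 1 and 2 was added after seeing the data.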

Additional observations from a re-analysis of the deposited data

How the results depend on the processing

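Over 23 alternatives, the 10 genes gave 230 log2 fold changes, of which 209 kept their direction without being called, 3 kept it and were called, and 18 had the other sign. The 3 calls were Nlrc4 (adjusted p 0.0416) and Pycard (0.0229) in DESeq2 and Nlrc4 (0.0416) in edgeR without GrB-Fc-KS49 replicate 4. Genes called over all genes tested numbered 0 with edgeR, 4708 with DESeq2, 1 with limma-voom and 1267 with limma-voom and sample weights, and 0 to 3447 over the fits that left out 1 library each (1260 without treated replicate 1, 3447 without treated replicate 4). Genes at an unadjusted p under 0.05 numbered 3637 with the length and GC trends removed, a fit limited to 14508 protein-coding genes with both values. Of the 10 genes, DESeq2 called 2, and leaving out 1 library each gave 0 to 1. At an unadjusted p under 0.05 were 4 with upper quartile factors (35.2% of all genes tested there), 0 without treated replicates 1 and 2 (23.9%), and 0 to 7 over the fits without 1 library, the 7 without treated replicate 3 (36.7%) and the 0 without treated replicate 1. Groups without overlap numbered 1 on the deposited CPM (Pycard; 25.1% of all genes tested) and 0 to 3 without 1 library: Gsdmd, Pycard and Il1b without treated replicate 3 (32.8%), Nlrc4 without treated replicate 4 (35.6%) and Pycard without IgG control replicate 2 (28.7%).

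The sign turned for Gsdme with upper quartile factors (0.02), without treated replicate 1 (0.01) or 2 (0.0012), and without both (0.08). For Casp1 it turned with no filter (-0.01), limma-voom (-0.01), sample weights (-0.04), the U suffix as a covariate (-0.0026), the length and GC trends removed (-0.15), without IgG control replicate 1 (-0.05) or 2 (-0.0077), without treated replicate 1 (-0.07) or 2 (-0.08), and without both of the latter (-0.25). Over the fits without 1 library, Gsdme ran from -0.11 to 0.01 and Casp1 from -0.08 to 0.11. Without treated replicates 1 and 2, Nlrp3 (-0.26), Aim2 (-0.05), Casp4 (-0.20) and Il18 (-0.29) turned as well. The cause was not tested. Among genes at an unadjusted p under 0.05, 49.2% were higher in treated tumours, 61.4% with upper quartile factors and 29.3% with the length and GC trends removed. The last share covers protein-coding genes only, so it is not over the same genes as the others.

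No paired analysis was possible because the replicate numbers follow the order of accession and tie no control to a treated tumour. Each of the 10 genes had at least 117 counts in each library; how much of the spread is counting error was not tested.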
